A study of Drosophila melanogaster with 78 samples.

Results

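Thoraces of 30-day-old long-lived insulin mutants (dilp 2-3,5) were set against those of their control strain (wDah) in total RNA. Members were chosen by tissue, age and genotype alone, which took 6 of the 78 samples of the series, 3 libraries per genotype. dilp 2-3,5 flies lack the insulin-like peptide genes Ilp2, Ilp3 and Ilp5 in every cell and throughout life. wDah is an outbred white-eyed Dahomey stock. Both were once-mated females that carry the bacterium Wolbachia and ate the same sugar, yeast and agar food, and the mutations had been crossed repeatedly into the wDah background. Thoraces, which hold the flight muscle, were dissected free of gut. The methods call the 3 libraries biological replicates and do not say how many flies went into each. The values were of 2 kinds: reads over the junctions of 1194 circRNAs in every library, and 1 pooled FPKM (fragments scaled to transcript length and library size) per transcript and genotype.

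A circRNA arises when the end of an exon is spliced back to the start of the same or an earlier exon, which closes the RNA into a ring without free ends. A circular read crosses this backsplice junction. A linear read, which the study describes as a linear spliced read of the host gene, is counted at the same ends. Ends that matched no annotated exon ends could hold many linear reads too. Per library these were 5294 to 7963 at 7SLRNA:CR32864 and 6077 to 8033 at mt:CoI. Linear counts were thus not shown to be spliced reads alone. The ratio of circular to linear reads shows how many reads of a ring there are for each linear read counted. It is free of the depth of the library only where linear counts meet no ceiling. Insulin-like peptides of the fly bind the insulin receptor InR, whose kinase cascade through Akt keeps the transcription factor FOXO out of the nucleus and drives growth through TOR. Flies with little insulin signalling are small, store more fat and live long, and flight muscle is one of the tissues in which FOXO acts on ageing.

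The libraries were shallow in circular reads, and one stood apart. Circular reads numbered 3147, 2097 and 8016 in dilp 2-3,5 replicates 1 to 3, against 2016, 3560 and 2294 in wDah replicates 1 to 3. Linear reads numbered 168291, 163994 and 240220 in dilp 2-3,5, against 152264, 192684 and 159370 in wDah. dilp 2-3,5 replicate 3 thus held more circular reads than the other mutant thoraces together, and values without it are given beside the results for the named rings that could still be tested. It also stood apart in transcripts of the gut: linear reads of the trypsin gene betaTry numbered 4, 2 and 594 in dilp 2-3,5, against 56, 316 and 175 in wDah. Linear counts met a common ceiling: the highest per library lay between 7935 and 8033, and the 7 to 14 counts over 7000 in a library held 35.2% to 52% of its linear reads. In all, 1003 circRNAs from 604 host genes had at least 1 circular read. The 361 with at least 10 reads of each kind over the 6 libraries, from 260 host genes, entered the ratio test. Of these, 319 began and ended at exon ends of 1 annotated transcript, with a median spliced length of 618 bases, and 96 held the annotated start codon.

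The circular share of the reads did not separate the genotypes. Circular over linear reads came to 1.87%, 1.28% and 3.34% in dilp 2-3,5 thoraces, against 1.32%, 1.85% and 1.44% in wDah thoraces. The means were 2.16% ± 1.06 in dilp 2-3,5 and 1.54% ± 0.275 in wDah (SD, n = 3 each), a difference of 0.625 percentage points that lay within the spread between libraries (two-sided exact permutation test, p = 0.6, where 3 against 3 cannot go below 0.1). Without dilp 2-3,5 replicate 3 the difference was 0.0373 percentage points (exact permutation test, p = 1.0). Without circRNAs with a linear count over 7000, the means were 4.58% in dilp 2-3,5 and 3.94% in wDah (exact permutation test, p = 0.7). The median ratio over tested circRNAs was 18.4%, 10.0% and 27.8% in dilp 2-3,5, against 12.5%, 19.0% and 13.5% in wDah. It was highest in dilp 2-3,5 replicate 3, the library with the most circular reads, and whether depth sets it was not tested. The number of circRNAs detected followed depth: 583, 493 and 767 in dilp 2-3,5, against 454, 614 and 476 in wDah (exact permutation test, p = 0.4). The means differed by 23.3 without dilp 2-3,5 replicate 3 (exact permutation test, p = 0.8). Thinned to the smallest circular total, the libraries held 478, 478 and 485 circRNAs in dilp 2-3,5, against 454, 478 and 451 in wDah (exact permutation test, p = 0.3).

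**Figure D1:**
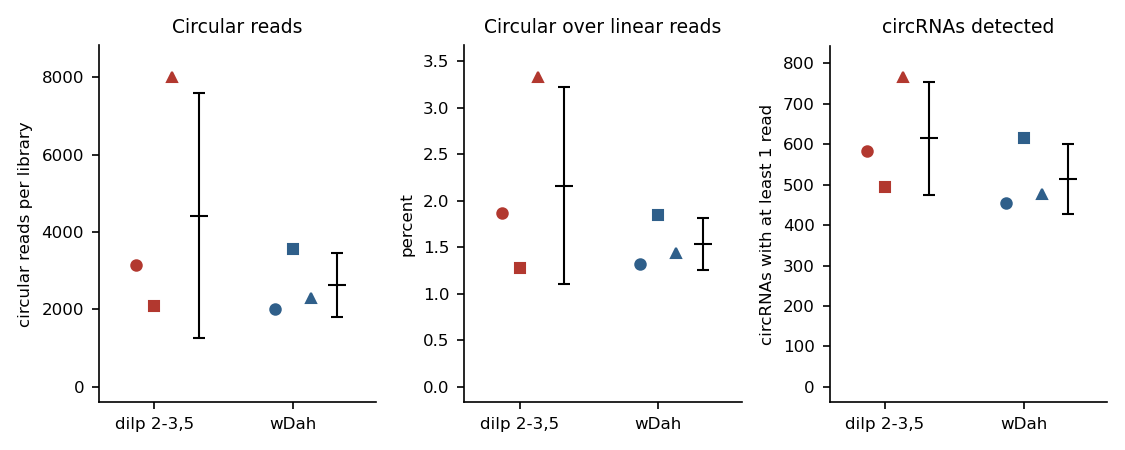
Circular reads, circular over linear reads in percent, and circRNAs with at least 1 read, for each of the 3 dilp 2-3,5 and 3 wDah thorax libraries of day 30 (circle, square and triangle are replicates 1, 2 and 3; the dash and bar are the mean and SD). dilp 2-3,5 replicate 3 is highest in all panels, at 8016 circular reads, and the genotypes overlap in every panel with or without it.

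The clearest difference was circSfl, a ring made of 1 exon of sulfateless (sfl), which encodes the enzyme that removes acetyl groups from heparan sulfate and puts sulfate in their place. The ring is 1067 bases long and lies at chr3L:6523030-6524096 on the plus strand of BDGP6 (Release 6), between introns of 17910 and 10396 bases. This exon is the third of transcript FBtr0076968 and the second of FBtr0301562, which lacks a 37-base untranslated exon at chr3L:6505083-6505119. It holds the annotated start codon at chr3L:6523501-6523503, with 471 bases before it. The 30 bases around its backsplice junction are shown because only reads over them count as circular, and those around the start codon because the ring carries it. Both come from the RefSeq Release 6 genome, in the direction of transcription. In the first, capitals begin where the exon starts again after the junction; in the second, they mark the start codon.
circSfl junction: gggcgtgtttaatggATAAGAGGACGACCC
sfl start codon, chr3L:6523492-6523521: gacgacaatATGacaatatcgggcggcaat
Read from this start codon, the frame ran through 198 codons to the end of the exon. It gained 1 base past the junction to complete codon 199 and then met the stop codon TAA, which can be read in the capitals above. Whether this frame is translated in thorax was not tested here.

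circSfl had 68, 33 and 143 circular reads in dilp 2-3,5 thoraces, against 2, 7 and 0 in wDah thoraces. Per 1000 circular reads these were 21.6, 15.7 and 17.8 in dilp 2-3,5, against 0.992, 1.97 and 0 in wDah, where a count of 0 in the third library allows up to 1.31. The genotypes did not overlap, and the mutant libraries lay close together once depth was taken out, the third included. Its circular reads rose in dilp 2-3,5, with a log2 fold change of 4.01 ± 0.50 (SE; edgeR quasi-likelihood test, adjusted p = 8.42e-13) and a 16.1-fold difference of summed reads per circular read counted. circSfl was one of 2 circRNAs past the threshold of adjusted p under 0.05 among 365 tested on circular reads (0.548%). It was called in 14 of 14 alternative analyses, with log2 fold changes of 3.49 to 5.30, and stood at 4.04 ± 0.52 without dilp 2-3,5 replicate 3 (edgeR adjusted p = 8.5e-12).

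Linear sfl reads at the same exon ends were also higher. They numbered 46, 30 and 116 in dilp 2-3,5, against 6, 15 and 12 in wDah, again without overlap. They rose in the mutant by 1.92 ± 0.30 on the log2 scale (edgeR, adjusted p = 0.0006), 1 of 2 calls among 967 linear counts tested (0.207%), and by 1.58 ± 0.28 without dilp 2-3,5 replicate 3 (edgeR adjusted p = 9.22e-05). The ring outnumbered its linear neighbours in the mutant and not in the control: circular over linear reads were 148%, 110% and 123% in dilp 2-3,5, against 33.3%, 46.7% and 0% in wDah. The log2 difference of the ratio was 2.25 ± 0.76. Its unadjusted p was 0.00303 and its adjusted p 0.693 over the 361 circRNAs (edgeR), so the ratio itself did not pass the test at day 30. Leaving out dilp 2-3,5 replicate 3 left it at 2.25 ± 0.74 (edgeR adjusted p = 0.414).

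The pooled FPKM of sfl was 22.6 in dilp 2-3,5 and 9.81 in wDah, a log2 ratio of 1.12 for FPKM + 1. The difference sat in 1 of its 2 transcripts. FBtr0301562, without the 37-base exon, was estimated at 16.1 FPKM (authors' interval 8.56 to 23.7) in dilp 2-3,5 and at 2.73 FPKM (0 to 8.07) in wDah. FBtr0076968, with that exon, stood at 6.44 FPKM (0.688 to 12.2) in dilp 2-3,5 and at 7.09 FPKM (1.54 to 12.6) in wDah. These transcripts were picked after their values were seen and have no replicate values. Reads from inside the circular exon fall into transcripts of sfl too, so FPKM and ring are not separate measurements.

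The same direction was measured in other thoraces, each against controls of its own. At day 10, whose libraries were made independently, circSfl had 151, 153 and 175 circular reads in dilp 2-3,5 and 13, 9 and 7 in wDah. The log2 fold change there was 3.83 ± 0.23 (edgeR adjusted p = 1.54e-27), and the ratio passed as well, at 2.38 ± 0.34 (edgeR adjusted p = 1.8e-05). At day 50 circular reads were 87, 48 and 53 in dilp 2-3,5 and 6, 8 and 7 in wDah (2.65 ± 0.33, edgeR adjusted p = 5.05e-13), and the ratio difference was 1.37 ± 0.41 (edgeR adjusted p = 0.102). Brains of day 30 held 30, 45 and 35 circular reads in dilp 2-3,5 and 6, 9 and 11 in wDah (1.97 ± 0.36, edgeR adjusted p = 0.000318). Tested directly, the ratio difference in thorax at day 30 minus that at day 50 was 0.86 ± 0.82, minus that at day 10 it was -0.18 ± 0.99, and minus that in brain it was 0.85 ± 0.79. None of these passed (edgeR adjusted p = 0.997, 0.996 and 0.949). With standard errors of this size, ages and tissues were not shown to act alike.

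**Figure D2:**
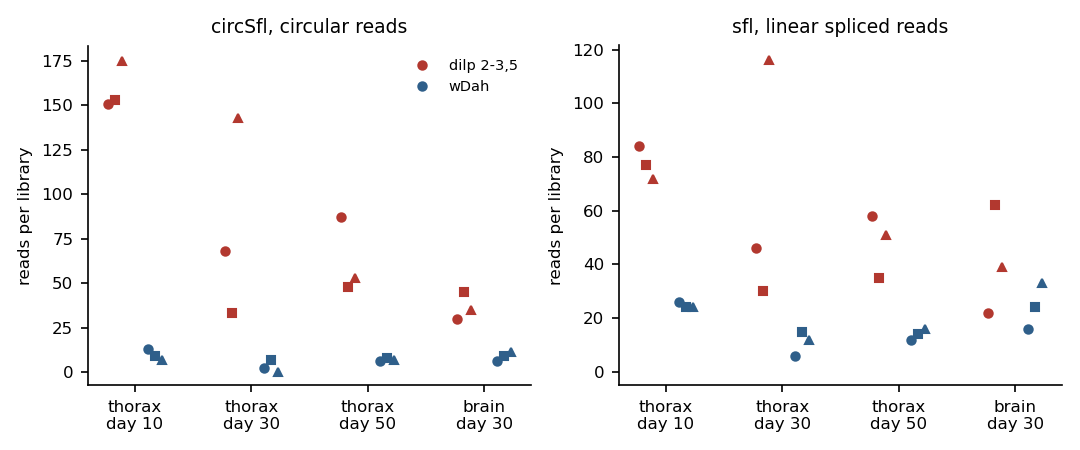
Circular reads of circSfl (left) and linear spliced reads of sfl (right) per library in thorax at days 10, 30 and 50 and in brain at day 30, with dilp 2-3,5 in red left of wDah in blue and replicates 1, 2 and 3 as circle, square and triangle. In thorax at day 30 the mutant libraries hold 33 to 143 circular reads and the controls 0 to 7, and circular reads do not overlap between the genotypes at any age or in brain, whereas linear reads in brain do.

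The other call on circular reads was circNos, from the gene for nitric oxide synthase, at chr2L:10812287-10813445 on the minus strand. It joins 3 exons, 318 bases in all. Its junction is shown because the gene was otherwise close to silent in thorax, with capitals after the junction.
circNos junction: attgcaggactccagGGCTGTGAAATTTAC
circNos had 3, 4 and 15 circular reads in dilp 2-3,5 and none in the 3 wDah libraries. Set against a floor of 3 reads over the control group, this was at least 4.35-fold higher in dilp 2-3,5 (edgeR adjusted p = 0.028). Linear reads at its exon ends were 0, 0 and 3 in dilp 2-3,5 and 0, 0 and 1 in wDah, too few for a ratio test, and the pooled FPKM of Nos was 1.20 in dilp 2-3,5 and 1.12 in wDah. With so few reads the call was fragile: it held in 2 of 12 alternatives, was lost whichever of 5 libraries was left out, and had an adjusted p of 0.534 in DESeq2. Without dilp 2-3,5 replicate 3 circNos no longer reached 10 reads and was not tested. At day 10 its circular reads were 9, 4 and 7 in dilp 2-3,5 and 7, 6 and 2 in wDah, a difference within the spread. At day 50 they were 8, 4 and 8 in dilp 2-3,5 and 0, 0 and 2 in wDah (edgeR adjusted p = 0.118). In brain at day 30 circNos was abundant and higher in the mutant, with 180, 535 and 350 reads in dilp 2-3,5 and 58, 28 and 40 in wDah (log2 fold change 2.90 ± 0.21, edgeR adjusted p = 3.85e-13). Linear Nos reads rose there too, with 58, 167 and 99 in dilp 2-3,5 and 14, 15 and 22 in wDah (2.37 ± 0.18, edgeR adjusted p = 3.17e-06). The ratio difference in brain was 0.43 ± 0.32 and did not pass (edgeR adjusted p = 0.844).

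The third gene with a call was Sug (the table's symbol, called Sugb in current annotation), at chr3L:11686070-11688338 on the plus strand. Its ring spans 4 exons and 1629 bases, and the junction is shown because no read crossed it in the mutant.
Sug junction: acatcgacgaaaatgGCACCGCTCCCGTCG
Linear Sug reads were 7, 5 and 26 in dilp 2-3,5, against 51, 70 and 53 in wDah, without overlap. They fell in the mutant by 2.78 ± 0.27 on the log2 scale (edgeR adjusted p = 1.74e-07), the second of the 2 calls on linear reads, and by 3.45 ± 0.30 without dilp 2-3,5 replicate 3 (edgeR adjusted p = 1.28e-12). Circular reads were 0, 0 and 0 in dilp 2-3,5, against 1, 6 and 4 in wDah, at least 6.18-fold lower in the mutant against a floor of 3 reads over the group (edgeR adjusted p = 0.0563). The ratio did not pass (edgeR adjusted p = 0.998). The pooled FPKM of Sug was 8.19 in dilp 2-3,5 and 74.6 in wDah. At day 10 linear reads numbered 22, 23 and 15 in dilp 2-3,5 and 65, 58 and 98 in wDah, and at day 50 they numbered 10, 9 and 12 in dilp 2-3,5 and 41, 107 and 129 in wDah, so that Sug passed the linear test at every age (edgeR adjusted p = 5.66e-06 at day 10 and 1.11e-08 at day 50). An antisense gene overlaps Sug, and whether the counting used strand is not given in the sources used here.

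**Figure D3:**
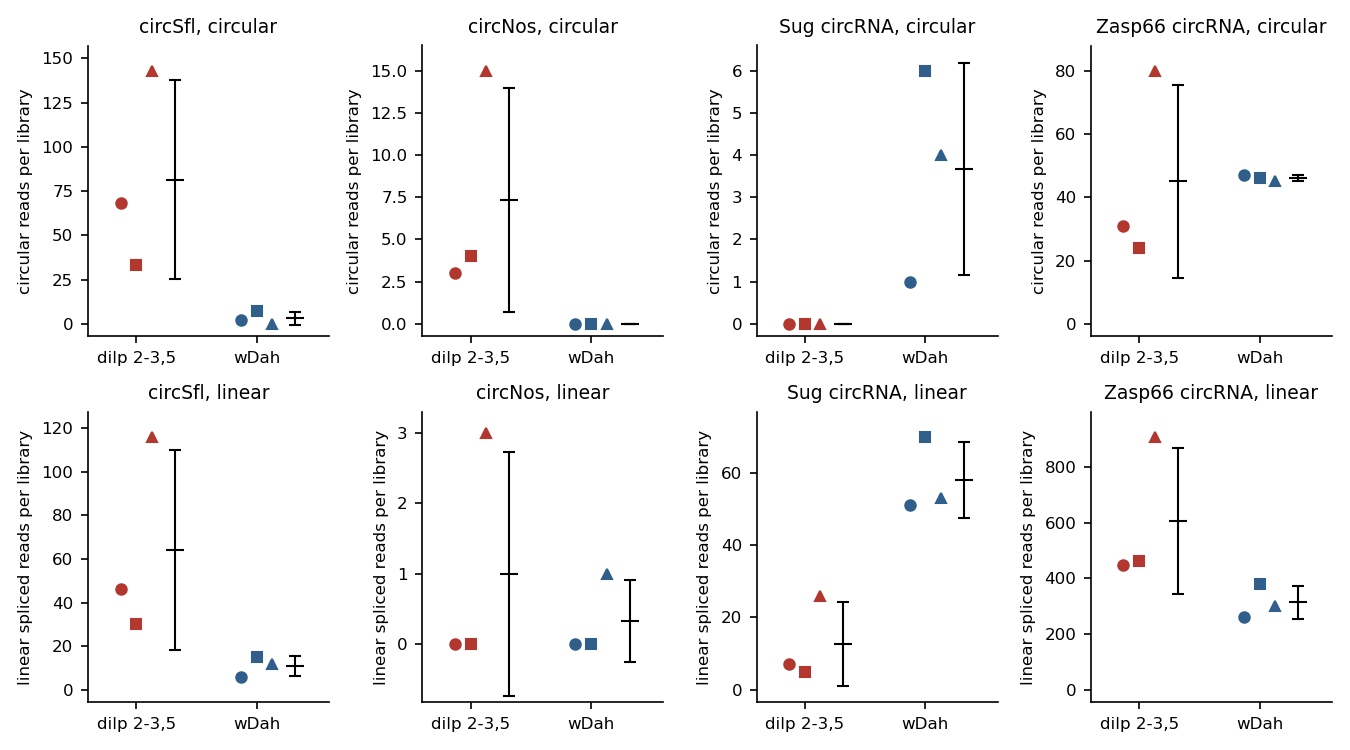
Circular reads (top) and linear spliced reads (bottom) of circSfl, circNos and the Sug and Zasp66 circRNAs in each day 30 thorax library, dilp 2-3,5 left of wDah, with the mean and SD as dash and bar (the bar can reach below 0 where the SD exceeds the mean). circSfl and its linear reads separate the genotypes upward and linear Sug reads downward, while Zasp66 holds 31, 24 and 80 circular reads in dilp 2-3,5 among the 45 to 47 of wDah.

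Across all circRNAs the ratio of circular to linear reads gave no call. Of 361 tested, 0 had an adjusted p under 0.05 (0.0%) with edgeR, and the same count of 0 came from DESeq2 and from a beta-binomial test of the kind the study used. The study marked circRNAs at p under 0.05 in its beta-binomial test and states no adjustment there. These counts of 0 therefore rest on a stricter threshold than the study's calls. At an unadjusted p under 0.05 edgeR had 15 (4.16%), 11 with a higher and 4 with a lower ratio in dilp 2-3,5. The 10 smallest p-values belonged to circSfl and to rings of PIP4K, gro, Syt1, Acsl, lcs, CG34126, CG7337 and, with 2 rings, sm. Their adjusted p ran from 0.693 to 0.889 (edgeR), so the values that follow describe them without a call.

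PIP4K encodes a kinase of phosphoinositide lipids, and its ring of 7 exons lies at chr4:1193560-1196477. It had 1, 2 and 9 circular reads in dilp 2-3,5, against 5, 9 and 11 in wDah, beside 41, 35 and 97 linear reads in dilp 2-3,5 and 29, 43 and 19 in wDah. Circular over linear reads were 2.44%, 5.71% and 9.28% in dilp 2-3,5, against 17.2%, 20.9% and 57.9% in wDah, a log2 difference of -2.08 ± 0.74. gro, the Groucho corepressor, had 1, 1 and 2 circular reads in dilp 2-3,5, against 5, 2 and 8 in wDah, and a ratio difference of -2.53 ± 0.92. The ratios of both did not overlap between the genotypes at day 30. Both rings were picked by their p in this ratio test, so this is not separate evidence. Leaving out dilp 2-3,5 replicate 3 gave ratio differences of -2.73 ± 0.93 for PIP4K and -2.64 ± 1.01 for gro (edgeR adjusted p = 0.414 and 0.521). Circular reads of both passed in a fit over 18 thorax libraries, as did those of Sug and of 1 ring of sm, although not in the fit over 6. At day 50 the PIP4K ring had 7, 9 and 12 circular reads in dilp 2-3,5 and 4, 5 and 6 in wDah, with a ratio difference of 0.41 ± 0.49. The gro ring had ratio differences of -0.46 ± 0.51 at day 10 and 0.48 ± 0.65 at day 50. The genotype difference of PIP4K at day 30 minus that at day 50 was -2.43 ± 0.85 (unadjusted p = 0.00606, edgeR adjusted p = 0.997).

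Among rings with a higher ratio, Syt1, from the calcium sensor of synaptic vesicle release, had 2, 2 and 12 circular reads in dilp 2-3,5, against 1, 0 and 0 in wDah. Acsl, which encodes a long-chain acyl-CoA synthetase, had 5, 1 and 21 in dilp 2-3,5, against 1, 0 and 2 in wDah. CG34126 had 1, 4 and 11 in dilp 2-3,5 and 0, 1 and 1 in wDah, and CG7337 had 3, 0 and 12 in dilp 2-3,5 and 2, 0 and 0 in wDah. In each of these, dilp 2-3,5 replicate 3 held most of the reads, and without it they no longer reached the minimum for the test. One ring of sm followed the same pattern, with 1, 2 and 17 reads in dilp 2-3,5 and 0, 1 and 0 in wDah. The other ring of sm had 1, 2 and 7 in dilp 2-3,5, against 5, 13 and 6 in wDah, and its ratio difference was -1.71 ± 0.76 and -2.29 ± 0.92 without dilp 2-3,5 replicate 3, so that 2 rings of 1 gene pointed in opposite directions.

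The ring of lcs at chrX:21397019-21397072 on the minus strand had 11, 8 and 22 circular reads in dilp 2-3,5, against 4, 5 and 4 in wDah (ratio difference 1.54 ± 0.63, edgeR adjusted p = 0.693, and 1.19 ± 0.55 without dilp 2-3,5 replicate 3). Its linear counts, 6200 to 7906 in dilp 2-3,5 and 6124 to 7305 in wDah, lay just under the ceiling, which limits the ratio. Its junction is shown because the last bases before it recur as the first bases after it, and its ends matched no annotated exon ends.
lcs junction: gcccaggaggaccagGAGGACCAGGAGGAC
In such a repeat a backsplice and a slipped alignment can look the same, which was not tested.

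**Figure D4:**
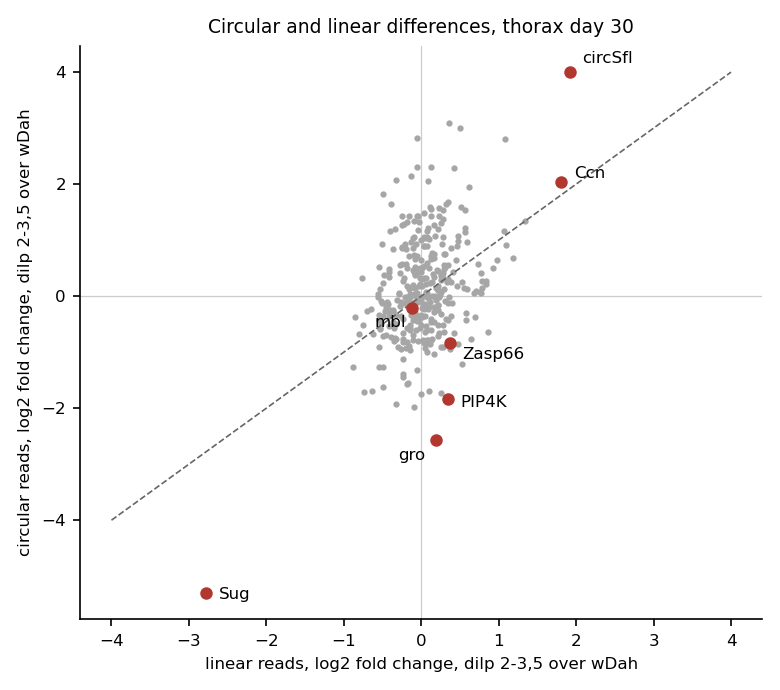
Log2 fold change of circular reads (vertical) against that of linear reads (horizontal), dilp 2-3,5 over wDah, for each circRNA tested on both, with the dashed line where both are equal and named rings in red. circSfl sits at 1.92 and 4.01, far above the line, and Sug at -2.78 on the horizontal axis; the vertical value of Sug is a fitted one against mutant libraries with 0 reads.

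None of the most abundant rings passed at day 30, which does not show that the genotypes were alike. The 5 with the most circular reads held 26.5% of the 21130 circular reads and came from mbl, CaMKI, lcs, uex and Dbp80. This lcs ring, at chrX:21396907-21396988, also had ends that matched no annotated exon ends. Its linear counts, 6511 to 7958 in dilp 2-3,5 and 6583 to 7305 in wDah, lay just under the ceiling, which limits its ratio. The ring of mbl, whose protein Muscleblind regulates splicing in muscle and binds its own RNA, had 279, 247 and 1033 circular reads in dilp 2-3,5, against 263, 443 and 308 in wDah. Circular over linear reads were 279%, 173% and 298% in dilp 2-3,5 and 237%, 239% and 261% in wDah. The genotypes overlapped, and the ratio difference was -0.01 ± 0.48. CaMKI, a calcium and calmodulin dependent kinase, had 213, 118 and 310 circular reads in dilp 2-3,5, against 97, 205 and 148 in wDah (ratio difference -0.25 ± 0.49). For the remaining rings of this group, at lcs, uex and Dbp80, the ratio differences lay between -0.35 and 0.14 with standard errors of 0.44 to 0.54. The edgeR adjusted p was 0.998 for each of the 5. With dilp 2-3,5 replicate 3 left out, the 5 ratio differences lay between -0.59 (uex) and 0.15 (lcs), each with an edgeR adjusted p of 0.991. In thorax at other ages, the CaMKI ratio passed at day 10 (0.57 ± 0.12, edgeR adjusted p = 0.00528). The uex ratio passed at day 50 (-0.61 ± 0.15, edgeR adjusted p = 0.0283). Ratios of mbl, lcs and Dbp80 passed at neither day 10 nor day 50. Circular reads alone were lower in dilp 2-3,5 for Dbp80 at day 10 (-0.53 ± 0.14, edgeR adjusted p = 0.0111) and for lcs at day 50 (-0.63 ± 0.19, edgeR adjusted p = 0.0428). Those of uex were lower at day 10 (-0.78 ± 0.14, edgeR adjusted p = 5.85e-05) and at day 50 (-0.78 ± 0.17, edgeR adjusted p = 0.00081).

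The thorax holds the flight muscle, whose sarcomeres slide thin filaments of actin, tropomyosin and troponin along thick filaments of myosin. Both are anchored by Z disc and titin-like proteins. From 6 sarcomere genes 8 rings could be tested, on a list chosen with earlier results of these data known. Of the 8, 2 had a higher and 6 a lower ratio in dilp 2-3,5, with a median log2 difference of -0.42, beside 0.18 over all 361, and 1 had an unadjusted p under 0.05. Without dilp 2-3,5 replicate 3 the medians were -0.89 for the 8 rings and -0.10 over the 243 then tested.

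The one was Zasp66, a PDZ and LIM family protein of the Z disc, with a ring of 2 exons and 232 bases at chr3L:8635681-8637598 on the plus strand.
Zasp66 junction, capitals after the junction: ttggttccaggaaagCTTCGCCACAAGCGA
The Zasp66 ring had 31, 24 and 80 circular reads in dilp 2-3,5, against 47, 46 and 45 in wDah. Linear reads were 448, 463 and 909 in dilp 2-3,5, against 263, 379 and 302 in wDah, which do not overlap as raw counts. Scaled for depth, the linear log2 fold change was 0.37 ± 0.26 and did not pass (edgeR adjusted p = 0.907). Circular over linear reads were 6.92%, 5.18% and 8.80% in dilp 2-3,5, against 17.9%, 12.1% and 14.9% in wDah, also without overlap. The log2 difference of -1.09 ± 0.52 did not pass at day 30 (edgeR adjusted p = 0.978), nor did that of -1.29 ± 0.46 without dilp 2-3,5 replicate 3 (edgeR adjusted p = 0.417). The same ring fell in ratio by 1.50 ± 0.16 at day 10 (edgeR adjusted p = 6.27e-08) and by 1.35 ± 0.20 at day 50 (edgeR adjusted p = 1.58e-05). The day 30 difference was not separable from either: it was 0.45 ± 0.45 above that at day 10 and 0.26 ± 0.50 above that at day 50 (edgeR adjusted p = 0.882 and 0.997).

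The other 7 sarcomere rings did not pass at day 30, and several of their values depended on dilp 2-3,5 replicate 3. wupA, which encodes troponin I, had 16, 11 and 60 circular reads in dilp 2-3,5, against 11, 30 and 13 in wDah (ratio difference -0.38 ± 0.58). Tropomyosin 1 (Tm1) had 2 rings at -0.48 ± 0.67 and -0.66 ± 0.59. The first of them stayed at 10, 10 and 10 circular reads in dilp 2-3,5 and 7, 10 and 10 in wDah. The titin-like kinase gene bt had 10, 6 and 9 in dilp 2-3,5, against 2, 5 and 3 in wDah, and a ratio difference of 0.95 ± 0.75, or 1.04 ± 0.78 without that library. Unc-89 (obscurin) and tmod (tropomodulin), with 15 to 25 circular reads a ring, lay between -0.45 and 0.06. The edgeR adjusted p of all 7 was 0.998. Without dilp 2-3,5 replicate 3, wupA was at -1.10 ± 0.56, the Unc-89 rings at -1.15 ± 1.0 and -1.04 ± 1.11, tmod at -0.34 ± 1.08 and the Tm1 rings at 0.05 ± 0.64 and -0.74 ± 0.59, with edgeR adjusted p of 0.991 to 1.0. At day 10 the ratio fell in dilp 2-3,5 for wupA by 1.12 ± 0.17 (edgeR adjusted p = 5.57e-05), for the first Tm1 ring by 1.08 ± 0.24 (0.00652) and for 1 Unc-89 ring by 1.62 ± 0.42 (0.0309). None of the 7 passed at day 50, and none differed between day 30 and day 10 in the direct test (edgeR adjusted p of 0.882 to 0.983).

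Beyond sfl and Sug no linear count passed. Of 967 linear counts from 544 host genes, 58 counts of 41 genes had an unadjusted p under 0.05, with 40 higher and 18 lower in dilp 2-3,5 (edgeR). Values named here were chosen after they were seen. The TGF-beta ligand gene daw, a known FOXO target, had 25, 37 and 71 linear reads in dilp 2-3,5, against 46, 61 and 52 in wDah (log2 fold change -0.85 ± 0.22, edgeR adjusted p = 0.17). GluClalpha, a glutamate-gated chloride channel, had 44, 40 and 89 in dilp 2-3,5, against 16, 32 and 18 in wDah (0.83 ± 0.23, edgeR adjusted p = 0.17), at 1 of several of its counts that share reads. LpR1, a lipophorin receptor, had 15, 21 and 38 in dilp 2-3,5, against 7, 10 and 8 in wDah (0.99 ± 0.28, edgeR adjusted p = 0.17). CG10910 had 0, 0 and 12 in dilp 2-3,5 and 5, 11 and 23 in wDah. Without dilp 2-3,5 replicate 3 the count of linear calls was 8, which added daw, CG10910, CG10911, CG12374, betaTry and yip7, all lower in the mutant. betaTry and yip7 are digestive serine proteases, and yip7 had 5, 3 and 773 linear reads in dilp 2-3,5, against 76, 549 and 333 in wDah. CG12374 had 15, 7 and 1030 in dilp 2-3,5, against 121, 501 and 371 in wDah. For these genes the first and second mutant libraries lay below every control and the third above every control, so that none was called with all 6 libraries (edgeR adjusted p = 0.97, 0.907 and 0.942).

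The genotype tests in thorax were also set against other ages and tissue for every ring. None of the 361 ratios differed in its genotype effect between day 30 and day 50 (0.0%), between day 30 and day 10 (0.0%) or between thorax and brain at day 30 (0.0%) at an edgeR adjusted p under 0.05, and DESeq2 also gave 0. At an unadjusted p under 0.05 edgeR had 14, 17 and 19. The smallest adjusted p, 0.176, belonged to Uhg3, a host gene of small nucleolar RNAs, whose day 30 effect minus that of day 10 was -2.56 ± 0.70. The day 10 libraries were made in another round, so age and round cannot be told apart there.

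The transcript table gave 1 pooled FPKM per genotype, so what follows has no replicate check, and no p-value is possible. FPKM of all transcripts of a gene were summed, and 6690 genes with at least 5 FPKM in either genotype were compared as the log2 ratio of FPKM + 1. Of these, 293 were past 2-fold (4.38%), 80 higher (1.2%) and 213 lower (3.18%) in dilp 2-3,5. Among the 6270 protein-coding genes, 191 were past 2-fold, 41 higher and 150 lower, and the median log2 ratio was 0.0. The 10 largest ratios in each direction were nearly all short non-coding RNAs (snoRNAs, tRNAs and a snRNA) listed at or near 0 in 1 genotype. snoRNA:Me28S-A2564 was at 545.8 FPKM in dilp 2-3,5 and listed at 0 in wDah, and tRNA:S4:56D was listed at 0 in dilp 2-3,5 and at 69.4 FPKM in wDah. RNAs of this length are poorly caught by such libraries, and no fold is given for them.

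The genotype labels could be checked on 1 gene. white (w), the eye pigment transporter that engineered fly alleles commonly carry as a marker, had 291 FPKM in dilp 2-3,5 and 0.0284 FPKM in white-eyed wDah, and it was the one protein-coding gene among the 20 largest ratios. The deleted genes said little in thorax, since their main source lies in the brain. Ilp2 was listed at 0 in both genotypes, Ilp3 at 0.0646 FPKM in dilp 2-3,5 and 0.131 in wDah, and Ilp5 at 0 in dilp 2-3,5 and 1.15 FPKM in wDah. Of the peptide genes that remain, Ilp6, which fat body and muscle make, stood at 9.06 FPKM in dilp 2-3,5 and 4.87 in wDah.

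Transcripts of the insulin cascade were mostly level in the pooled FPKM, and the activity of the cascade was not measured. Of 19 genes compared from receptor to FOXO and TOR, 1 was past 2-fold, and the median log2 ratio was 0.0, as over all protein-coding genes. InR was at 12.2 FPKM in dilp 2-3,5 and 10.8 in wDah, foxo at 56.5 in dilp 2-3,5 and 53.0 in wDah, and Akt1 at 30.9 in dilp 2-3,5 and 26.6 in wDah. The exception was ImpL2, a secreted protein that binds insulin-like peptides, at 7.15 FPKM in dilp 2-3,5 and 23.4 in wDah. Thor, the translation inhibitor 4E-BP and a FOXO target, was at 385 FPKM in dilp 2-3,5 and 279 in wDah, a log2 ratio of 0.46. Over 12 FOXO-responsive genes the median was 0.13, with 8 above and 4 below 0. The list sets no direction for each gene, so these values do not measure FOXO activity. The small heat shock gene l(2)efl stood at 87.9 FPKM in dilp 2-3,5 and 54 in wDah, and daw at 36.9 FPKM in dilp 2-3,5 and 66.7 in wDah.

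Of the sarcomere genes 1 was past 2-fold, and the medians lay at or above 0. Thin filament genes had a median log2 ratio of 0.27 over 12, thick filament genes 0.10 over 10 and Z disc and titin genes 0.04 over 9, beside 0.0 over all protein-coding genes. Act88F, the actin of indirect flight muscle, was that gene, at 238 FPKM in dilp 2-3,5 and 118 in wDah (log2 ratio 1.01). up, which encodes troponin T, was at 253 FPKM in dilp 2-3,5 and 154 in wDah, TpnC4 at 165 in dilp 2-3,5 and 111 in wDah, and the myosin light chain Mlc2 at 1061 in dilp 2-3,5 and 755 in wDah. Myosin heavy chain (Mhc) differed little, with 309 FPKM in dilp 2-3,5 and 280.2 in wDah. Summed over 6 flight muscle markers, the level was 2066 FPKM in dilp 2-3,5 and 1554 in wDah. It was 2015 FPKM in dilp 2-3,5 and 1152 in wDah at day 10, and 3200.0 FPKM in dilp 2-3,5 and 1142 in wDah at day 50. In bulk tissue, fewer cells of a type and less RNA per cell cannot be told apart.

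Genes of fuel use and protein synthesis were flat. The medians were 0.05 over 20 genes of glycolysis and flight fuel, -0.08 over 30 nuclear genes of the respiratory chain, -0.04 over 24 ribosomal proteins, -0.02 over 13 chaperones and -0.05 over 20 antioxidant enzymes, and no gene of these lists was past 2-fold. Sod, which detoxifies superoxide in the cytosol, came closest, with 331 FPKM in dilp 2-3,5 and 171 in wDah (log2 ratio 0.95). Arginine kinase (Argk), which buffers ATP in flight muscle, was at 251 FPKM in dilp 2-3,5 and 351 in wDah. Genes of calcium handling had a median of 0.06 over 12. Genes of fat storage had a median of -0.14 over 13, and 12 splicing factors tied to circRNA formation, of which 11 were compared, had -0.05. mbl was at 88.9 FPKM in dilp 2-3,5 and 93.2 in wDah. Of 11 heparan sulfate genes compared, sfl alone was past 2-fold, and it was higher, beside 0.654% higher among all protein-coding genes. Of the 11, 9 lay below 0, beside 49.3% of all protein-coding genes. Their median was -0.14 and the lowest log2 ratio -0.43, without a replicate check.

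Immune genes differed in both directions. Of 16 immune genes compared, 14 lay below 0 and 4 were past 2-fold lower in dilp 2-3,5, with a median of -0.30, beside 49.3% of all protein-coding genes below 0 and 2.39% past 2-fold lower. Def, a defensin, was at 11.9 FPKM in dilp 2-3,5 and 129.8 in wDah, Dpt at 10.5 in dilp 2-3,5 and 82.2 in wDah, and DptB at 13.5 in dilp 2-3,5 and 63.8 in wDah. These encode a defensin and diptericins, peptides that kill bacteria and that the Imd pathway switches on. Mtk sat at the threshold, with 701 FPKM in dilp 2-3,5 and 1406 in wDah. The antifungal peptide Drs pointed the other way, at 165 FPKM in dilp 2-3,5 and 126 in wDah, and the attacin genes were close, AttA at a log2 ratio of -0.02 and AttB at -0.13. A second list of 16 immune peptides and lysozymes, made after the values were seen, had 4 lower and 2 higher past 2-fold, with sums of 6152 FPKM in dilp 2-3,5 and 6224 in wDah. In it Listericin was at 6.42 FPKM in dilp 2-3,5 and 53.4 in wDah, while the lysozyme gene LysD was at 1496 in dilp 2-3,5 and 487 in wDah and LysB at 108 in dilp 2-3,5 and 45.6 in wDah. Def was also lower at day 10 (14.2 FPKM in dilp 2-3,5, 129.9 in wDah) and at day 50 (20.1 in dilp 2-3,5, 241 in wDah). Fat body makes most of these peptides. Of 7 fat body markers compared, 5 lay below 0 and 2 above it, with a median of -0.37. Past 2-fold were 2, both lower. Lsp1beta was at 9.68 FPKM in dilp 2-3,5 and 39.2 in wDah, and Lsp2 at 40.6 in dilp 2-3,5 and 86.0 in wDah. The summed level of 11 fat body markers was 25772 FPKM in dilp 2-3,5 and 32314 in wDah. Their part in the immune values was not tested.

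Digestive genes differed although the gut had been removed. Of 9 enterocyte markers compared, 8 lay below 0, 4 were past 2-fold lower and 1 higher, with a median of -0.92, beside 2.39% lower and 0.654% higher among all protein-coding genes. The trypsin gene alphaTry was at 290.4 FPKM in dilp 2-3,5 and 673 in wDah, betaTry at 139 in dilp 2-3,5 and 343 in wDah, and the amylase gene Amy-p at 10.8 in dilp 2-3,5 and 67.6 in wDah. The maltase gene Mal-B1 went the other way, at 649.5 FPKM in dilp 2-3,5 and 296 in wDah. Summed over the 10 markers, the level was 1311 FPKM in dilp 2-3,5 and 1828 in wDah at day 30. These pooled values hide a split between libraries, since 594 of the linear betaTry reads of dilp 2-3,5 came from replicate 3 and 4 and 2 from the others. Their part in the immune and other pooled values was not tested.

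Markers of other cells were mostly even. Neuron markers had a median of 0.06 over 6 genes, glia -0.02 over 5 and hemocytes 0.08 over 6, and none was past 2-fold. The 2 cuticle genes compared had a median of -0.59 and the 3 of oenocytes and heart -0.62, with 1 lower past 2-fold in each list. Egg genes were near 0 in both, with a summed 7.60 FPKM in dilp 2-3,5 and 12.9 in wDah over 8 genes. Flight muscle markers were all present, the lowest being TpnC4 in wDah at 111 FPKM. Genes of the fly's eye stood out, from a list of 14 photoreceptor genes made after the values were seen: without the minimum of 5 FPKM, 10 of the 14 were at least 2-fold lower in dilp 2-3,5 and 0 higher. The shares over all genes used that minimum, so this count has no background beside it. Rh3, Rh5, Rh6, ninaC and trp, which are among the 10, lay near the floor, at 1.33 to 2.87 FPKM in wDah. The rhodopsin gene ninaE was at 6.64 FPKM in dilp 2-3,5 and 42.9 in wDah, and the arrestin gene Arr2 at 2.90 FPKM in dilp 2-3,5 and 25.9 in wDah. The summed level was 23.2 FPKM in dilp 2-3,5 and 133 in wDah at day 30, but 26.0 in dilp 2-3,5 and 13.8 in wDah at day 10, and 37.0 in dilp 2-3,5 and 25.6 in wDah at day 50. The high value thus belonged to the day 30 wDah pool, and which of its libraries carried it cannot be seen in a pooled column.

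**Figure D5:**
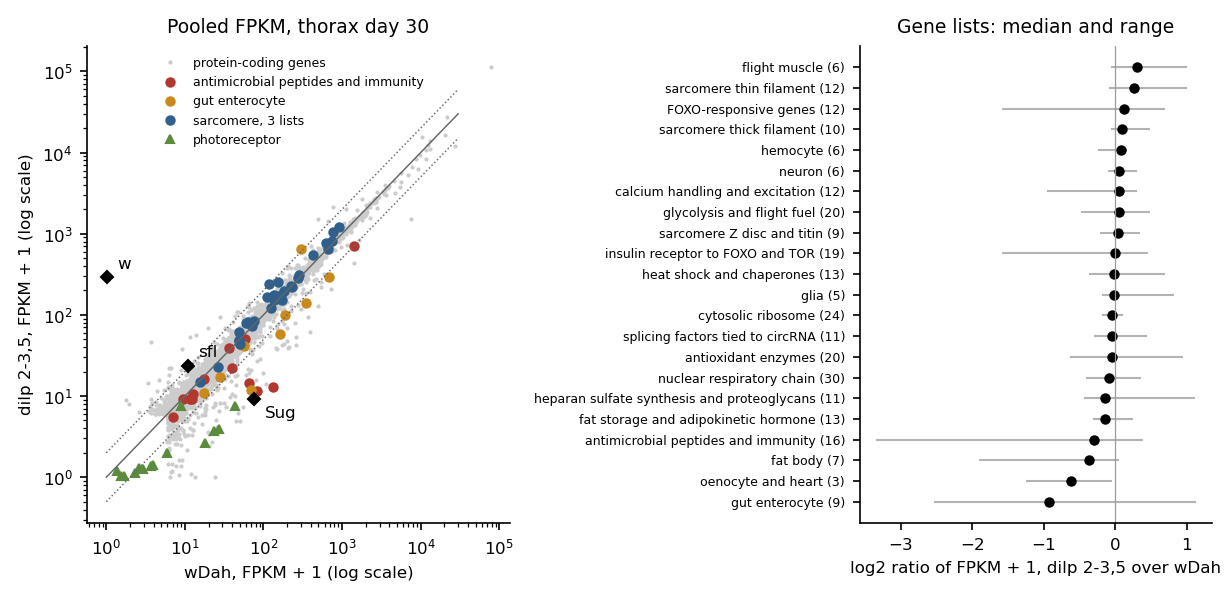
Left, pooled FPKM + 1 in dilp 2-3,5 (vertical) against wDah (horizontal) on log axes, with protein-coding genes in grey, lists in colour, the solid line for equal levels and dotted lines for 2-fold of FPKM + 1. Right, the median (point) and range (line) of the log2 ratio in each list, with the number of genes compared. Most photoreceptor genes and several immune and gut genes lie below the dotted line, sarcomere genes along and above the solid one, and w is at 291 FPKM in dilp 2-3,5.

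The protein-coding genes with the largest ratios and at least 10 FPKM in either genotype were looked at after the values were seen. The 5 highest in dilp 2-3,5 were w, CG42759 (45.8 FPKM in dilp 2-3,5, 2.69 in wDah), CG8112 (51.6 in dilp 2-3,5, 10.7 in wDah), CG43232 (13.5 in dilp 2-3,5, 2.41 in wDah) and the protease gene Jon25Bi (55.7 in dilp 2-3,5, 12.7 in wDah). CG8112 was also higher at day 10, with 19.6 FPKM in dilp 2-3,5 and 5.75 in wDah, and at day 50, with 46.5 in dilp 2-3,5 and 12.8 in wDah. Jon25Bi was not, with 62.7 in dilp 2-3,5 and 79.9 in wDah at day 10. The 5 lowest were CG43391 (listed at 0 in dilp 2-3,5, 23.4 in wDah), CG43390 (listed at 0 in dilp 2-3,5, 12.5 in wDah), CG7298 (0.106 in dilp 2-3,5, 11.1 in wDah), the glycosyltransferase gene Ugt35b (3.88 in dilp 2-3,5, 48.7 in wDah) and Def. Ugt35b was lower at day 50 too, with 4.32 in dilp 2-3,5 and 34.8 in wDah. Further down the ranking, and picked by hand, Arc1, whose protein forms capsids that carry RNA between cells, was at 2125 FPKM in dilp 2-3,5 and 759 in wDah. The odorant-binding protein gene Obp56a, also picked by hand, was at 13.0 FPKM in dilp 2-3,5 and 106 in wDah.

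Several of the genes named lie on the chromosome arm of the deleted genes. Ilp2, Ilp3 and Ilp5 are at chr3L:9799698-9823897, and Zasp66, Sug and sfl lie 1.16, 1.86 and 3.28 Mb away. Of the protein-coding genes past 2-fold, 46 of 191 were on 3L (24.1%), beside 1203 of the 6270 compared (19.2%), and 13 (6.81%) lay within 3 Mb of the deleted genes, beside 343 (5.47%). Of the linear counts with an unadjusted p under 0.05, 18 of 58 were on 3L (31.0%), beside 180 of 967 tested (18.6%), and 6 (10.3%) lay within 3 Mb, beside 43 (4.45%). Counts of 1 gene share reads, so these are counts and not a test. Alleles of other genes that stayed linked to the deletions through the crosses cannot be told apart from the deletions here.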

How the data were processed

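rRNA-depleted libraries of Trizol-extracted RNA had been sequenced by the authors, 3 per genotype. The deposited tables hold raw counts, made by mapping to BDGP6 with STAR 2.5.2b and detecting circRNAs with DCC: circular reads over backsplice junctions, and linear reads at those ends. FPKM in the deposited transcript table came from HISAT2 2.0.4, StringTie 1.3.0 and Cufflinks, 1 value per genotype, tissue and age with no replicate values. Columns with the authors' own tests were not used, and 48 per-library columns of each count table belong to other tissues or ages.

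Counts with at least 10 reads over the 6 libraries were tested with edgeR 4.0.16 in R 4.3.3 (glmQLFit, glmQLFTest), each library entering the ratio test as a circular and a linear column with a library term. p-values were adjusted by Benjamini-Hochberg over all features tested, at 0.05. Circular and linear counts alone were scaled by TMM. Interactions used 12 libraries each. The beta-binomial test of the study was rewritten in Python 3.11.15. DESeq2 1.42.0, other scalings, minimums of reads, a replicate block, a fit over 18 libraries and leaving out each library were alternatives. FPKM used a pseudocount of 1 and a minimum of 5. Scripts were tested on simulated data. Precision is limited by 2016 to 8016 circular reads a library, and floors cover counting error only. p-values measure the spread between these 3 libraries per genotype.

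circRNAs named were those called, the 10 smallest p in the ratio test, the 5 most abundant, those of sarcomere genes and circSfl, with linear calls, the 10 largest FPKM ratios each way and list members. Others were picked after their values were seen. These members and lists were chosen with earlier results of these data known. Positions matched Release 6, since 98.1% of circRNAs were flanked by AG and GT. Of 33568 transcripts, 33098 matched the annotation.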

Additional observations from a re-analysis of the deposited data

How the results depend on the processing

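circSfl was called on circular reads in all 14 alternatives run (edgeR or DESeq2 adjusted p of 6.28e-20 to 0.00544), and the ratio test gave 0 calls in each alternative that kept the ratio. Tested on circular reads alone in place of the ratio it gave 1. The 2 calls on circular reads became 1, circSfl, with DESeq2, with equal library sizes, with no minimum of reads, with counts scaled by linear reads and without any 1 library (range 1 to 1), 3 from 30 reads (adding Ccn and CG4266, without circNos), 3 without rings at the linear ceiling (adding Sug) and 8 in a fit over 18 libraries (adding Ccn, CG4266, PIP4K, Sug, gro and sm). Linear calls were 0 with equal library sizes, 5 over 18 libraries and 2 to 8 when 1 library was left out, 8 without dilp 2-3,5 replicate 3. With equal sizes linear sfl had an adjusted p of 0.277 and Sug one of 0.404 (edgeR). The median circular over linear ratio differed by 3.71 percentage points, and leaving out 1 library moved the difference of the totals between 0.0373 and 1.07 points. Genes past 2-fold numbered 175 from 20 FPKM, 592 over single transcripts and, added after seeing the data, 191 among protein-coding genes. The share of higher genes was 27.3%, and 36.7% over single transcripts. With a pseudocount of 5, Act88F (0.99), sfl (0.90), Mtk, Lsp2 and ple (-0.81) were no longer past 2-fold.

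Replicate numbers did not pair the libraries: same-numbered deviations correlated at 0.0623, 0.0122 and 0.0296 in circular and 0.153, -0.158 and 0.103 in linear reads. With the replicate number as a block, the calls were 0 on the ratio, 1 on circular and 3 on linear reads. circNos then had an adjusted p of 0.121 (edgeR).

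Ratios that did not pass changed sign as follows. mbl was at 0.0 over 18 libraries and 0.01 in the beta-binomial test, tmod at -0.07 with both read kinds scaled by TMM, and lcs (the larger ring) at -0.36 and Dbp80 at 0.12 on circular reads alone. Leaving out 1 library took tmod from -0.34 to 0.58, mbl from -0.17 to 0.23, the lcs ring from -0.15 to 0.42, Dbp80 from -0.22 to 0.07, wupA from -1.10 to 0.14, the first Tm1 ring from -0.80 to 0.05, and the Unc-89 rings from -1.15 to 0.28 and from -1.16 to 0.78. The cause was not tested. Low circular depth limits all of these.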
